A study of Mus musculus with 1677 samples.

Results

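The jejunum, the middle segment of the small intestine, was compared between mice fed a Western diet without limits on time (ad-libitum feeding, ALF) and mice given the same diet only at night (time-restricted feeding, TRF). The series profiled polyadenylated RNA from 22 tissues of wild-type C57BL/6J mice around the clock, and its table of counts per gene holds 1035 libraries. All 48 columns named for the jejunum were used: 24 ALF and 24 TRF libraries, 2 per feeding group at each of 12 clock times, 2 h apart. Clock time is given in zeitgeber hours (ZT), with lights on at ZT0 and 12 h of light. Mice arrived at 10 weeks of age and spent 2 weeks on normal chow. Both groups then ate a diet with 45% fat and 17% sucrose for 7 weeks, and TRF mice had food for 9 h, from ZT13 to ZT22. Nothing in the labels says whether a library came from 1 mouse or from pooled tissue, so p-values measure the spread between these libraries. The labels do not give the sex of the mice.

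The jejunum absorbs most dietary sugar, amino acids and fat. Its enterocytes carry brush-border enzymes and transporters, package fat into chylomicrons, and are renewed from dividing cells in the crypts, while Paneth and other epithelial cells secrete antimicrobial lectins and lysozyme. Feeding time is a strong daily cue for clocks in digestive organs, in which the activators CLOCK and BMAL1 (the product of Arntl) drive their own repressors in a daily loop.

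Library totals ran from 9616409 to 47048692 counts in ALF (median 17854940) and from 8044852 to 56743921 in TRF (median 18459411). Summed over 12 enterocyte markers, all tested, the level ran from 25705 to 73299.5 CPM (counts scaled to a common library total) in ALF and from 19743 to 74969 CPM in TRF. Genes made in stomach were summed at 7.90 to 762 CPM in ALF and 10.1 to 137 CPM in TRF over the 7 tested of 11, with medians of 19.6 and 22.6 CPM. The 9 tested of 14 pancreatic acinar genes stayed at or below 118 CPM in sum.

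Fold changes between the feeding groups followed the GC content of the transcripts. Over 14799 genes with a known GC content, Spearman's rho between log2 fold change and GC content was 0.70, across genes that are not independent replicates. The median log2 fold change was -0.20 for genes of 35 to 40% GC and 0.38 for genes of 60 to 65% GC. Each library's own slope, in log2 CPM per 10 percentage points of GC, ran from -0.42 to 0.14 in ALF (median -0.087) and from -0.12 to 0.37 in TRF (median 0.15). It was above 0 in 2 of 24 ALF libraries and in 20 of 24 TRF libraries. Replicates of both numbers showed the order: medians were -0.14 in ALF and 0.037 in TRF for replicate 1, and -0.063 and 0.22 for replicate 2. The part of feeding and of library preparation in this trend cannot be told apart, so every comparison of levels was also fitted with offsets that remove each library's GC trend, after which rho was 0.0045.

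**Figure D1:**
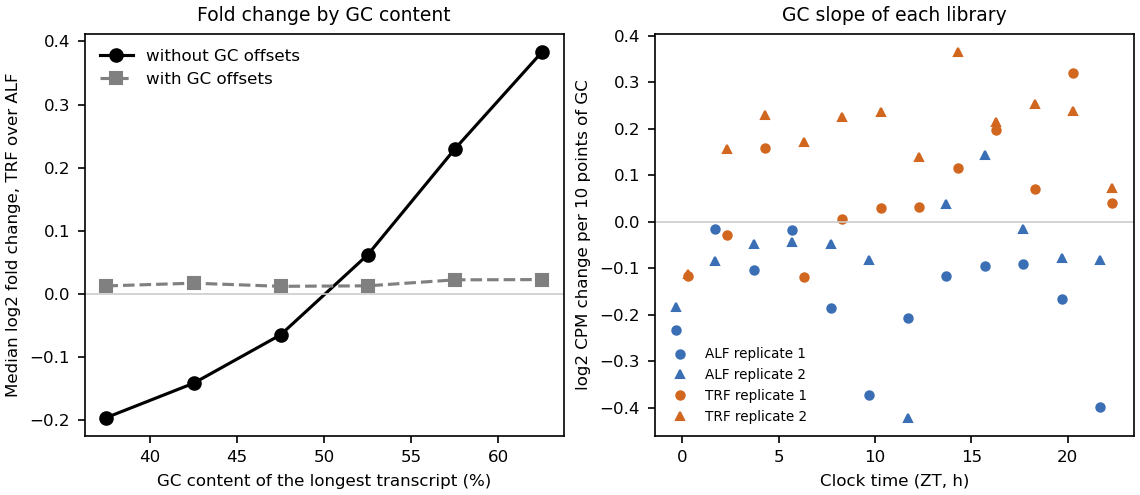
Left, the median log2 fold change (TRF over ALF, y) of genes in bins of 5 percentage points of GC content (x), without and with GC offsets. Right, the GC slope of each of the 48 libraries (y, log2 CPM per 10 percentage points) by clock time (x). The slope medians are -0.087 in ALF and 0.15 in TRF, and the trend on the left is flat with offsets.

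The first comparison asks which genes differ in level between the feeding groups over the whole day, with clock time as a factor in the model. Of 14921 genes tested, 22.7% were higher and 22.3% lower in TRF at an adjusted p below 0.05 (edgeR quasi-likelihood, Benjamini-Hochberg). Values written with ± are followed by the standard error (SE). With and without GC offsets alike, 8.36% were higher and 5.21% lower, and 51 genes passed in opposite directions. In what follows, rose and fell mean passing without offsets, and the number that also passed with offsets stands beside each such count of a list. Counts of a list are to be read against these shares. The lists were drawn up with earlier results of these data known, and no list as a whole was tested.

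**Figure D2:**
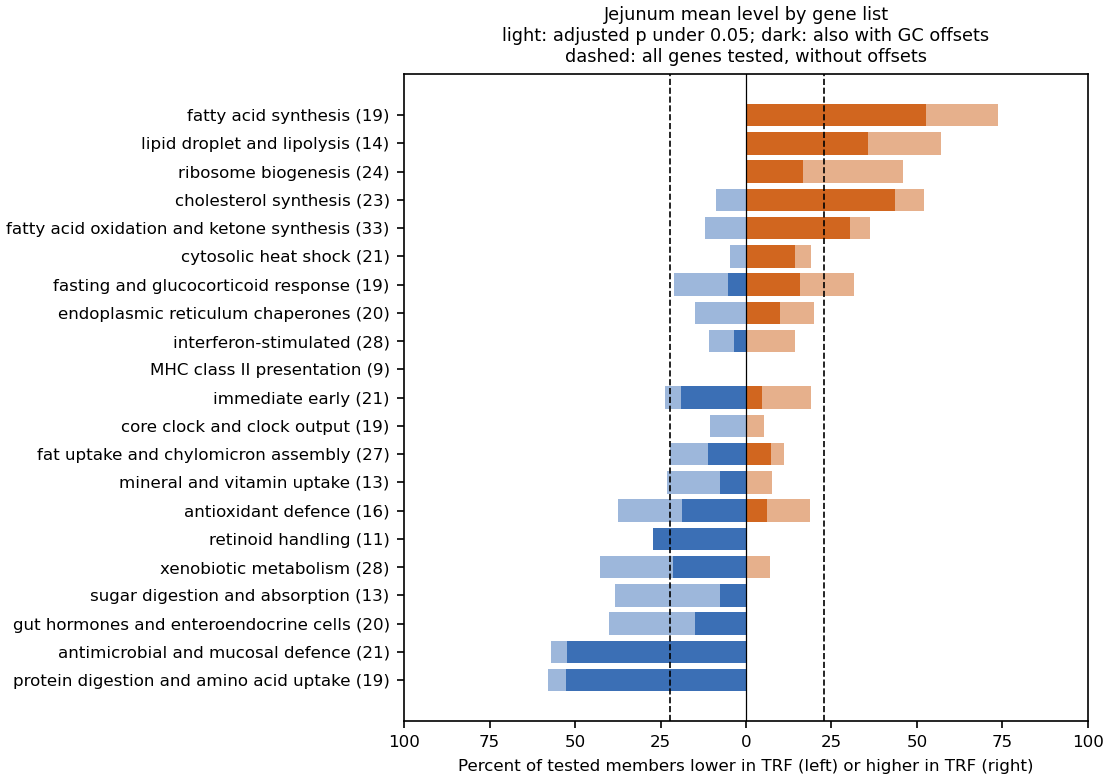
Percent of the tested members of 21 gene lists (number tested in parentheses) that were lower (left) or higher (right) in TRF. Light bars count an adjusted p below 0.05 without GC offsets, dark bars those that also passed with offsets, and dashed lines mark all genes tested, 22.3% and 22.7%. Fatty acid synthesis lies farthest to the right, protein digestion and antimicrobial defence farthest to the left.

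Genes of mucosal defence were lower in TRF, led by the antimicrobial C-type lectins of the Reg3 family. Of 21 tested members of 25, 12 fell and 0 rose, and 11 of those that fell also did so with GC offsets. The list's median log2 fold change was -0.34 against -0.0094 over all genes tested. Reg3b (chr6:78370657-78373466, GRCm38) stood at 329.7 to 8082 CPM in the ALF libraries (median 1685) and 69.7 to 1489 CPM in the TRF libraries (median 342). The groups overlapped, but 11 of 24 TRF libraries lay below the lowest ALF library, and at all 12 clock times the TRF mean was the lower one. That is a 4.80-fold lower level (log2 fold change -2.26, SE 0.28, adjusted p = 1.47e-07; -2.15 with GC offsets, adjusted p = 1.34e-06). ALF libraries of the same clock time differed widely, for example 3824 and 374 CPM at ZT14 and 1767 and 8082 CPM at ZT8. Reg3g, whose product binds Gram-positive bacteria, stood at 213 to 3425 CPM in the ALF libraries (median 758) and 76.5 to 802 CPM in the TRF libraries (median 224) (log2 fold change -1.75, SE 0.22, adjusted p = 1.89e-07). Reg3a (-1.09) and Reg1 (-0.97) fell as well. Reads of these neighbouring and similar genes may be shared, so their separate values are uncertain.

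Nos2, the inducible nitric oxide synthase, stood at 2.02 to 52.8 CPM in the ALF libraries (median 10.1) and 1.23 to 9.33 CPM in the TRF libraries (median 4.81) (log2 fold change -1.40, SE 0.28, adjusted p = 0.000135). Duox2, the epithelial NADPH oxidase that makes hydrogen peroxide, and its maturation factor Duoxa2 fell by 0.51 and 0.57 on the log2 scale (adjusted p = 0.00406 and 0.00424). Pigr, the receptor that carries IgA across the epithelium, was lower at all 12 clock times (log2 fold change -0.38, SE 0.073, adjusted p = 7.65e-05), as was the goblet cell lectin Zg16 (log2 fold change -0.34, SE 0.090, adjusted p = 0.00221). Lypd8, which keeps flagellated bacteria off the epithelium, fell (log2 fold change -0.35, SE 0.055, adjusted p = 5.15e-06). The 3 gasdermin genes of one cluster, Gsdmc2 (-1.17), Gsdmc3 (-1.24) and Gsdmc4 (-1.05), were among the 12 largest falls, and they are close copies that can share reads. Significance was lost without replicate 1 for Nos2, Duox2 and Duoxa2 (adjusted p = 0.0513, 0.0626 and 0.13) and without replicate 2 for Duox2, Pigr and Zg16 (adjusted p = 0.0793, 0.095 and 0.066).

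Most tested Paneth and goblet cell products did not pass the test. Lyz1, the Paneth cell lysozyme, had a log2 fold change of -0.16 (SE 0.094, adjusted p = 0.165). Of 11 Paneth markers 2 fell, 1 also with offsets, and 0 rose. Of 11 goblet markers 3 rose and 1, Zg16, fell, and of these only Zg16 also passed with offsets. The goblet mucin Muc2 had a value of -0.11 (SE 0.085, adjusted p = 0.278). In bulk tissue, fewer cells of a type and less RNA per cell cannot be told apart. Of the 8 tested of 10 markers of tuft cells, the chemosensory cells that start type 2 responses, 5 fell, 4 of them also with offsets, led by Rgs13 (log2 fold change -0.52, SE 0.073, adjusted p = 9.03e-07; -0.27 with GC offsets, adjusted p = 0.00168). No member of the MHC class II list passed in either direction (9 tested).

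Fatty acid synthesis genes stood higher under TRF. Of 19 members, all tested, 14 rose and 0 fell, and 10 rose also with offsets. The list's median log2 fold change was 0.28. Scd1 (chr19:44394455-44407879), the desaturase that makes oleate, stood at 52.9 to 272 CPM in the ALF libraries (median 124) and 140.1 to 1022 CPM in the TRF libraries (median 492). Of the 24 TRF libraries, 20 lay above the highest ALF library, and the 3.35-fold higher level held at all 12 clock times (log2 fold change 1.74, SE 0.17, adjusted p = 1.79e-09; 1.83 with GC offsets, adjusted p = 1.68e-09). Fasn (chr11:120805846-120824547), the fatty acid synthase, stood at 49.7 to 99.3 CPM in the ALF libraries (median 65.9) and 84.8 to 422 CPM in the TRF libraries (median 147). Of its TRF libraries 21 of 24 lay above every ALF library (log2 fold change 1.28, SE 0.12, adjusted p = 4.64e-10; 1.04 with GC offsets, adjusted p = 1.23e-07).

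Both acetyl-CoA carboxylases rose. Acaca, which makes the malonyl-CoA used by Fasn, stood at 24.3 to 40.7 CPM in the ALF libraries (median 31.1) and 30.8 to 60.5 CPM in the TRF libraries (median 42.8) (log2 fold change 0.45, SE 0.057, adjusted p = 2.33e-07). Acacb, whose malonyl-CoA restrains mitochondrial fat oxidation, stood at 6.12 to 14.9 CPM in the ALF libraries (median 10.9) and 10.7 to 60.4 CPM in the TRF libraries (median 22.2) (log2 fold change 1.19, SE 0.11, adjusted p = 7.66e-10). Thrsp, an acidic nuclear protein that accompanies lipogenesis, rose 3.12-fold (log2 fold change 1.64, SE 0.21, adjusted p = 2.27e-07). Acly, which supplies cytosolic acetyl-CoA, and Srebf1, the sterol-regulatory factor that drives lipogenic genes, rose by smaller amounts (log2 fold changes 0.42 and 0.52, adjusted p = 1.35e-05 and 6.57e-05). With GC offsets Srebf1 was at 0.27, and without replicate 1 Acly was at 0.25 (adjusted p = 0.0382). The elongase Elovl6 was at 0.019 (SE 0.059, adjusted p = 0.812; 0.16 with GC offsets, adjusted p = 0.0328), and the desaturase Fads1 at 0.050 (SE 0.056, adjusted p = 0.488).

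Markers of adipocytes, cells of the mesenteric fat that can adhere to the gut, rose beside them. Of 14 markers, all tested, 12 rose and 1 fell, 9 and 1 also with offsets, and several of them (Cfd, Lipe, Plin1, Lpl) are not exclusive to adipocytes. Their summed level ran from 214 to 580.1 CPM in ALF (median 416) and from 354 to 899.7 CPM in TRF (median 621). Adipoq, the adipocyte hormone adiponectin, stood at 4.75 to 29.3 CPM in the ALF libraries (median 13.7) and 9.22 to 49.6 CPM in the TRF libraries (median 28.5) (log2 fold change 0.82, SE 0.18, adjusted p = 0.00049). No member was at 0 in every library, and Lep was at 0 in 1 TRF library. With log2 Adipoq as a term in the model, an alternative chosen after the data were seen, the log2 fold change among lipogenic genes was 1.10 for Scd1, 1.12 for Fasn, 1.21 for Acacb and 1.02 for Thrsp. All 4 still passed (adjusted p = 2.13e-08, 1.05e-06, 3.81e-07 and 7.09e-05).

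Cfd, which encodes the serine protease adipsin, had the largest rise of the named genes, 5.05-fold, at 1.68 to 25.2 CPM in the ALF libraries (median 4.47) and 5.93 to 79.2 CPM in the TRF libraries (median 28.6) (log2 fold change 2.34, SE 0.29, adjusted p = 1.50e-07); with the Adipoq term it was 1.37 (adjusted p = 7.53e-06). Lep, the gene of the satiety hormone leptin, went the other way at 2.83 to 24.3 CPM in the ALF libraries (median 12.2) and 0 to 36.1 CPM in the TRF libraries (median 3.72) (log2 fold change -1.20, SE 0.32, adjusted p = 0.00228). Without replicate 1 the Lep value was -0.60 (adjusted p = 0.28), and without replicate 2 it was -2.02 (adjusted p = 0.00487). Endothelial and lymphatic markers rose in 8 of 11, 7 also with offsets, and hemoglobin genes were higher (Hbb-bs 0.82, adjusted p = 0.00012). Smooth muscle markers rose in 6 of 12, 5 also with offsets. With the Adipoq term the Lep value was -2.02 (adjusted p = 3.13e-05). Of 126 named or listed genes called in mean level, 106 kept their call with this term and 20 did not. The part of the other cell types was not tested.

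**Figure D3:**
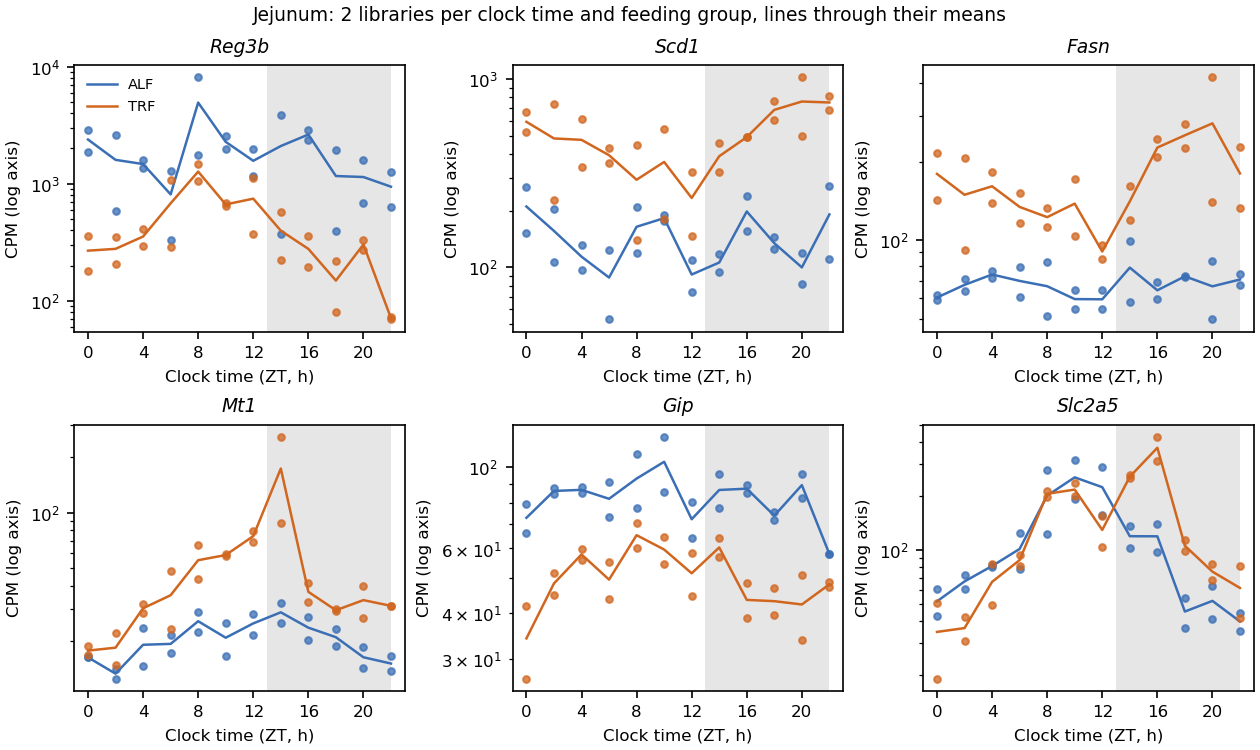
CPM (y, log axis) of 6 genes by clock time (x) in the 2 ALF and 2 TRF libraries of each time (points) with lines through their means; the shaded hours, ZT13 to ZT22, are those with food for TRF mice. Reg3b and Gip are lower and Scd1 and Fasn higher in TRF at all 12 clock times, and the TRF means of Mt1 and Slc2a5 are highest at ZT14 and ZT16.

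Cholesterol synthesis genes were also higher. Of 23 members 12 rose, 10 of them also with offsets, and 2 fell, neither of which passed with offsets. Early enzymes of the pathway led: Mvk, the mevalonate kinase, stood at 4.69 to 14.99 CPM in the ALF libraries (median 7.80) and 6.70 to 21.4 CPM in the TRF libraries (median 12.6) (log2 fold change 0.71, SE 0.086, adjusted p = 1.47e-07), and Mvd rose by 0.66 (adjusted p = 3.68e-07). Srebf2, the factor that drives the pathway, rose by 0.44 (SE 0.055, adjusted p = 1.47e-07). With GC offsets Mvd was at 0.37 and Srebf2 at 0.20. Among genes of fat uptake and chylomicron assembly, 3 rose and 6 fell of 27 tested of 28, 2 and 3 also with offsets. Npc1l1, the target of cholesterol uptake inhibitors, fell (log2 fold change -0.35, SE 0.092, adjusted p = 0.00229) and Scarb1, a receptor of high-density lipoprotein, rose (log2 fold change 0.51, SE 0.094, adjusted p = 4.25e-05). Calls did not hold without replicate 2 for Npc1l1 (adjusted p = 0.103). Fitted with the Adipoq term, the value was -0.27 for Npc1l1 (adjusted p = 0.0674) and 0.49 for Scarb1 (adjusted p = 0.0011).

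Genes for protein digestion and amino acid uptake were lower. Of 19 tested of 20, 11 fell and 0 rose, and 10 fell also with offsets; the median log2 fold change was -0.28. Slc15a1, the brush-border peptide transporter PEPT1, stood at 131 to 1077 CPM in the ALF libraries (median 309.5) and 39.4 to 971 CPM in the TRF libraries (median 231) (log2 fold change -0.70, SE 0.15, adjusted p = 0.000235). Both ranges are wide, since the gene was rhythmic in both groups (adjusted p = 1.82e-05 in ALF and 9.69e-11 in TRF). Dpp4, a brush-border peptidase, fell (log2 fold change -0.52, SE 0.096, adjusted p = 4.46e-05). Anpep, the aminopeptidase N, was at -0.15 (SE 0.11, adjusted p = 0.259). Of 13 sugar genes 5 fell, 1 also with offsets, which was Lct, the lactase (log2 fold change -0.31, SE 0.12, adjusted p = 0.0362). Cubn, the receptor that takes up vitamin B12 bound to intrinsic factor, fell (log2 fold change -0.83, SE 0.17, adjusted p = 0.000201). It is also a marker of the distal small intestine, of which 2 fell and 1 rose of 9 tested of 11, 2 and 0 also with offsets. The part of sample position along the gut was not tested. The call was lost without replicate 1 for Lct (adjusted p = 0.14) and without replicate 2 for Lct (adjusted p = 0.17).

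Markers of the villus tip fell in 6 of 10, 4 also with offsets, including Nt5e (log2 fold change -0.89, SE 0.25, adjusted p = 0.00369) and Slc28a2 (log2 fold change -0.88, SE 0.26, adjusted p = 0.00532), an ecto-nucleotidase and a nucleoside carrier. Of 12 enterocyte markers 3 fell, 1 also with offsets, and 0 rose. Plb1, a brush-border phospholipase, and 2010109I03Rik were among the 12 largest falls (-1.02 and -1.54). Significance was lost without replicate 1 for Plb1 (adjusted p = 0.147) and without replicate 2 for Nt5e, Slc28a2 and 2010109I03Rik (adjusted p = 0.335, 0.313 and 0.31). With the Adipoq term the log2 fold change was -0.49 for Nt5e (adjusted p = 0.23), -0.65 for Slc28a2 (adjusted p = 0.133), -1.03 for 2010109I03Rik (adjusted p = 0.0893) and -0.21 for Lct (adjusted p = 0.297), none of which passed. It was -1.18 for Plb1 (adjusted p = 0.0327), -0.62 for Slc15a1 (adjusted p = 0.0104), -0.53 for Dpp4 (adjusted p = 0.00104) and -0.77 for Cubn (adjusted p = 0.00785). With GC offsets added to this term, Plb1, Slc15a1 and Cubn did not pass (adjusted p = 0.0842, 0.0521 and 0.0508), while Dpp4 did (adjusted p = 0.0438).

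Of the gut hormone genes, Gip and Nts were lower. Gip, an incretin made by K cells, stood at 57.8 to 121 CPM in the ALF libraries (median 83.4) and 26.5 to 70.5 CPM in the TRF libraries (median 49.7) (log2 fold change -0.72, SE 0.065, adjusted p = 3.46e-10; -0.80 with GC offsets, adjusted p = 2.10e-11). Among the 24 TRF libraries 18 lay below the lowest ALF library. Nts, neurotensin, was lower too (log2 fold change -0.81, SE 0.13, adjusted p = 5.44e-06; -0.61 with GC offsets, adjusted p = 0.000592). Gcg, which encodes GLP-1, was at 0.00053 (SE 0.054, adjusted p = 0.995), and Chgb, a granule protein common to these cells, at -0.0051 (SE 0.059, adjusted p = 0.954). Over the list 8 of 20 fell, 3 also with offsets, and 0 rose. Neurod1 (-0.31), Pcsk1 (-0.22) and Scg2 (-0.20) were among those that fell (adjusted p = 0.000345, 0.00706 and 0.0139). They did not pass with offsets (adjusted p = 0.0815, 0.714 and 0.266).

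Metallothioneins, small proteins that bind zinc and copper, rose. Mt1 stood at 12.5 to 32.2 CPM in the ALF libraries (median 19.6) and 14.8 to 259 CPM in the TRF libraries (median 32.2) (log2 fold change 1.02, SE 0.13, adjusted p = 2.63e-07) and Mt2 at 1.48 to 8.28 CPM in the ALF libraries (median 3.51) and 1.60 to 139 CPM in the TRF libraries (median 7.33) (log2 fold change 1.63, SE 0.24, adjusted p = 2.26e-06). Both reached their top in TRF at ZT14, where the 2 libraries held 88.2 and 259 CPM of Mt1 and the ALF libraries 32.2 and 25.2 CPM. Xenobiotic metabolism was lower: 12 of 28 tested of 30 fell, 6 also with offsets, and 2 rose, 0 also with offsets. Cyp2b10, a target of the receptor CAR, fell (log2 fold change -0.81, SE 0.14, adjusted p = 2.27e-05), as did the receptor gene Nr1i3 itself (-0.23, adjusted p = 0.0403), while the ethanol-metabolising Cyp2e1 rose (log2 fold change 1.56, SE 0.20, adjusted p = 2.39e-07). Cyp2b10 is also a marker of the proximal small intestine, of which 1 fell and 1 rose of 7 tested of 8, 1 and 1 also with offsets. Irs2, an insulin receptor substrate, rose at all 12 clock times (log2 fold change 0.83, SE 0.13, adjusted p = 4.02e-06). The ribosomal protein genes Rpl36 (1.36) and Rpl29 (0.93) were among the 12 largest rises; their processed pseudogenes can take reads, and their GC contents are 60.8% and 60.5%. Another named rise was Igfbp6 (0.96), and the other named falls were Rdh16 (-1.18) and AA467197 (-1.02). With GC offsets Rpl29 was at 0.60 and Igfbp6 at 0.61. Values with the Adipoq term were 0.93 for Cyp2e1 (adjusted p = 0.00015), -0.78 for Cyp2b10 (adjusted p = 0.000986) and -0.15 for Nr1i3 (adjusted p = 0.31). Calls did not hold without replicate 1 for Nr1i3 (adjusted p = 0.401) and without replicate 2 for Nr1i3 (adjusted p = 0.1).

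Retinoid genes that fell were Lrat, which esterifies retinol for storage and transport (log2 fold change -0.35, SE 0.062, adjusted p = 2.49e-05; -0.18 with GC offsets, adjusted p = 0.0104), Aldh1a1, which makes retinoic acid (log2 fold change -0.47, SE 0.10, adjusted p = 0.000382), and Bco1, which cleaves beta-carotene (log2 fold change -0.68, SE 0.22, adjusted p = 0.0124). All 3 of these 11 tested genes also fell with offsets, and 0 rose. Aldh1a1 had a median of 525 CPM in ALF and 375 CPM in TRF. The call was lost without replicate 1 for Bco1 (adjusted p = 0.145) and without replicate 2 for Bco1 (adjusted p = 0.14). The value with the Adipoq term was -0.52 for Bco1 (adjusted p = 0.155). Lrat and Aldh1a1 passed with this term (adjusted p = 0.0024 and 0.0373). With GC offsets added they were at -0.11 and -0.23 and did not pass (adjusted p = 0.256 and 0.27). Among immune cell markers, the complement genes of macrophages C1qb and C1qc rose (log2 fold change 0.51, SE 0.094, adjusted p = 4.08e-05, and log2 fold change 0.46, SE 0.090, adjusted p = 7.87e-05), to 0.29 and 0.23 with GC offsets, as did the lysosomal marker Cd68 (log2 fold change 0.39, SE 0.094, adjusted p = 0.000794). Of 12 markers of macrophages and dendritic cells 4 rose and 1 fell, 3 and 1 also with offsets. With the Adipoq term and GC offsets C1qb was at 0.17, C1qc at 0.14 and Cd68 at 0.26, and none passed (adjusted p = 0.37, 0.405 and 0.14). The mucosal mast cell protease gene Mcpt1, at a median of 3.25 CPM in ALF and 2.02 CPM in TRF, fell (log2 fold change -0.54, SE 0.16, adjusted p = 0.005). Significance was lost without replicate 1 for Mcpt1 (adjusted p = 0.0506) and without replicate 2 for Mcpt1 (adjusted p = 0.0911). T lymphocyte markers fell in 2 of 11 and rose in 0, with 0 passing with offsets.

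The second comparison asks whether the TRF effect differed between the hours of the TRF meal and the rest of the day. Samples at ZT14 to ZT22 were set against ZT0 to ZT12, the hours without food for TRF mice. The difference between the effects was positive for 3.53% and negative for 2.68% of genes tested. Without either replicate the edgeR test called 0 genes, with 1932 genes at an unadjusted p below 0.05 without replicate 1 and 1741 without replicate 2, so these calls rest on both together.

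Beside 3.53% and 2.68% of all genes, heat shock chaperones had a positive difference in 13 of 21 members and a negative one in 0. Their mean log2 CPM, relative to each gene's own mean, was 1.54 and 1.59 in the 2 TRF libraries at ZT14 and 0.18 and 0.57 in the ALF libraries. At ZT8 it was -0.72 and -0.77 in TRF and -0.38 and -0.44 in ALF. Hspa1b, the inducible HSP70, went from 0.952 CPM at ZT8 to 318 CPM at ZT14 in TRF (means of 2 libraries), and its log2 fold changes were -0.84 ± 0.50 at ZT0 to ZT12 and 1.58 ± 0.49 at ZT14 to ZT22 (difference 2.42, SE 0.70, adjusted p = 0.0305). Hspa1a is a nearly identical copy, so reads may be split between them. Hsp90aa1, the inducible HSP90, had log2 fold changes of -0.22 ± 0.14 at ZT0 to ZT12 and 0.78 ± 0.16 at ZT14 to ZT22 (difference 1.00, SE 0.22, adjusted p = 0.00449). Chaperones of the endoplasmic reticulum, which fold secreted proteins, had a positive difference in 7 of 20, among them Hspa5 (BiP; difference 0.61, SE 0.18, adjusted p = 0.0294) and Creld2 (difference 0.88, SE 0.17, adjusted p = 0.00242).

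Promoters of 2 heat shock genes are shown because 13 of 21 genes of this list passed in 1 direction, with matches to GAANNTTC, the core of the heat shock element, in capitals. The letters are the 250 bases before the annotated gene start, 5′ to 3′ (RefSeq, GRCm38.p6). The motif is its own reverse complement, so both strands are searched at once.
Hspa1b, chr17:34959239-34959488, minus strand: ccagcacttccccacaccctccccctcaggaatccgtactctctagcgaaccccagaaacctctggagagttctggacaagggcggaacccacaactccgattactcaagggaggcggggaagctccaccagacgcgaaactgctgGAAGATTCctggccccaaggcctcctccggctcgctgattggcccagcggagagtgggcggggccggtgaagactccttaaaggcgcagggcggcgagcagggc
Hspe1, chr1:55087898-55088147, plus strand: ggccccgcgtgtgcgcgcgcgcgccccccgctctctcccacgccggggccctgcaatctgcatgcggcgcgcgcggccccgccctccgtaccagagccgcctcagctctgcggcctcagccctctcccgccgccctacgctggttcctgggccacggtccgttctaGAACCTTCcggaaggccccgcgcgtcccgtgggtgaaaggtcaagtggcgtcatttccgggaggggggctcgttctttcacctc
The match began 104 bases before the start of Hspa1b and 84 bases before that of Hspe1, which encodes mitochondrial HSP10. Among 18 heat shock genes with a RefSeq promoter, 7 held the motif (38.9%), against 7.73% of all 27025 genes. A match is a description of the letters only.

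Genes of fructose uptake and use had positive differences. Slc2a5, the fructose transporter GLUT5, stood at 314 and 429 CPM in the TRF libraries and 140.2 and 97.5 CPM in the ALF libraries at ZT16, with log2 fold changes of -0.41 ± 0.15 at ZT0 to ZT12 and 1.03 ± 0.18 at ZT14 to ZT22 (difference 1.45, SE 0.23, adjusted p = 0.000417). Tkfc, which phosphorylates glyceraldehyde from fructose, had a difference of 0.89 (SE 0.20, adjusted p = 0.00576). Slc2a2, the glucose transporter GLUT2, had one of 1.00 (SE 0.29, adjusted p = 0.0313). The sodium-glucose transporter Slc5a1 did not pass (difference 0.22, SE 0.20, adjusted p = 0.556). Lep had log2 fold changes of -2.33 ± 0.36 at ZT0 to ZT12 and -0.00029 ± 0.40 at ZT14 to ZT22 (difference 2.33, SE 0.51, adjusted p = 0.00524). At ZT6 its 2 TRF libraries held 0 and 1.31 CPM, and the ALF libraries 12.2 and 3.04 CPM.

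G0s2, an inhibitor of triglyceride lipase, and Cidec, a lipid droplet protein, had log2 fold changes of 1.00 and 1.00 in the meal hours (differences 1.41 and 1.02, adjusted p = 0.00726 and 0.00354). Cidec is also an adipocyte marker, and the 14 adipocyte markers had median log2 fold changes of 0.42 at ZT0 to ZT12 and 0.89 at ZT14 to ZT22. The part of adipocytes in the meal-hour differences was not tested. The largest negative differences were those of Adh4, a retinol and alcohol dehydrogenase, and Slc6a20a, an imino acid transporter. Adh4 had 0.45 ± 0.25 at ZT0 to ZT12 and -1.33 ± 0.32 at ZT14 to ZT22 (difference -1.78, SE 0.40, adjusted p = 0.00613). Slc6a20a had 0.20 ± 0.15 at ZT0 to ZT12 and -1.18 ± 0.18 at ZT14 to ZT22 (difference -1.38, SE 0.24, adjusted p = 0.000751). Erbb3, a receptor of neuregulins, showed 0.49 ± 0.14 at ZT0 to ZT12 and -0.77 ± 0.17 at ZT14 to ZT22 (difference -1.26, SE 0.22, adjusted p = 0.000751). The other genes named by size were Rab30 (1.74), Cemip (1.48), Zc3h6 (-1.37) and Ptk6 (-1.08).

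The third comparison concerns rhythms with a period of 24 h, fitted as a cosine in each group. A rhythm was called for 14.2% of genes in ALF and 55.8% in TRF, and the rhythms differed in 6.33%. Of the 2118 genes rhythmic in ALF, 93.1% were also called in TRF; of the 8325 in TRF, 23.7% were called in ALF. The amplitude (the fitted height from mean to peak, log2) had a median of 0.13 in ALF and 0.22 in TRF, and was larger in TRF for 79.5% of genes. The median SD between the 2 libraries of a time was 0.20 in ALF and 0.24 in TRF on the log2 scale. Among the 945 genes whose rhythm differed, the amplitude was larger in TRF in 937 and in ALF in 8. Without replicate 1 the rhythm difference passed for 118 genes and without replicate 2 for 10. Rhythms in ALF numbered 153 and 431, those in TRF 4421 and 4805. Leaving out the 5 libraries with the steepest GC slopes (3 ALF and 2 TRF), chosen after the data were seen, gave 1126 rhythmic genes in ALF and 7995 in TRF. Of the 7 tested stomach genes, 6 were called rhythmic in ALF and 0 in TRF. The 9 tested pancreatic acinar genes gave 7 calls in each group, and the 14 adipocyte markers 0 in ALF and 11 in TRF. The Adipoq term was fitted to the mean level only. The part of carried-over tissue and of cell types in the rhythms was not tested.

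In TRF the fitted peaks lay mostly in 4 of 6 bins of 4 h: 20.6% of rhythmic genes peaked between ZT4 and ZT8, 21.8% between ZT8 and ZT12, 23.9% between ZT16 and ZT20 and 20.8% between ZT20 and ZT24. In ALF 38.8% peaked between ZT8 and ZT12. Over the 1971 genes called in both groups the median peak was 0.47 h later in TRF (quartiles -0.32 and 1.28 h), and 85.0% shifted by less than 2 h.

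Clock genes cycled with large amplitudes in both groups. Of 19 members 17 were rhythmic in ALF and 18 in TRF, beside 14.2% and 55.8% of all genes, and the median amplitude was 1.48 and 1.55. Rora had no called rhythm in either group (adjusted p = 0.822 and 0.597), and Clock passed in TRF (adjusted p = 0.00343) and not in ALF (adjusted p = 0.322), with an adjusted p of 0.7 for the difference. Nr1d1 (chr11:98767932-98775333), the repressor REV-ERB alpha, went from 1.30 CPM at ZT22 to 106 CPM at ZT12 in ALF, and from 1.505 CPM at ZT22 to 150.5 CPM at ZT10 in TRF. At ZT2 the ALF libraries held 28.5 and 16.7 CPM and the TRF libraries 5.27 and 8.12 CPM. Its fitted peak was at ZT8.57 ± 0.173 h in ALF and ZT9.62 ± 0.170 h in TRF, with an amplitude of 3.11 ± 0.14 in ALF and 3.17 ± 0.14 in TRF, and the rhythms differed (adjusted p = 0.0139).

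Nfil3, a repressor that opposes DBP, was the other clock gene whose rhythm differed (adjusted p = 0.0105), with a fitted peak at ZT22.9 ± 0.349 h in ALF and ZT0.991 ± 0.335 h in TRF. Arntl, the activator BMAL1, peaked at ZT0.146 ± 0.262 h in ALF and ZT1.31 ± 0.244 h in TRF (adjusted p of the difference = 0.0521), and Dbp, an output factor under direct E-box control, at ZT11.5 ± 0.224 h in ALF and ZT12.6 ± 0.208 h in TRF (adjusted p of the difference = 0.0699). Per2, a repressor of the loop, had an amplitude of 1.60 ± 0.18 in ALF and 2.32 ± 0.18 in TRF (adjusted p of the difference = 0.109). Shifts of the fitted peak over the 17 members rhythmic in both ran from -0.055 h for Cry2 to 2.12 h for Nfil3, later in TRF in 16. Peaks also lay later in TRF over all 1971 genes called in both groups, by a median of 0.47 h (quartiles -0.32 and 1.28 h). Samples were 2 h apart, and 15 of the 17 differences did not pass.

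**Figure D4:**
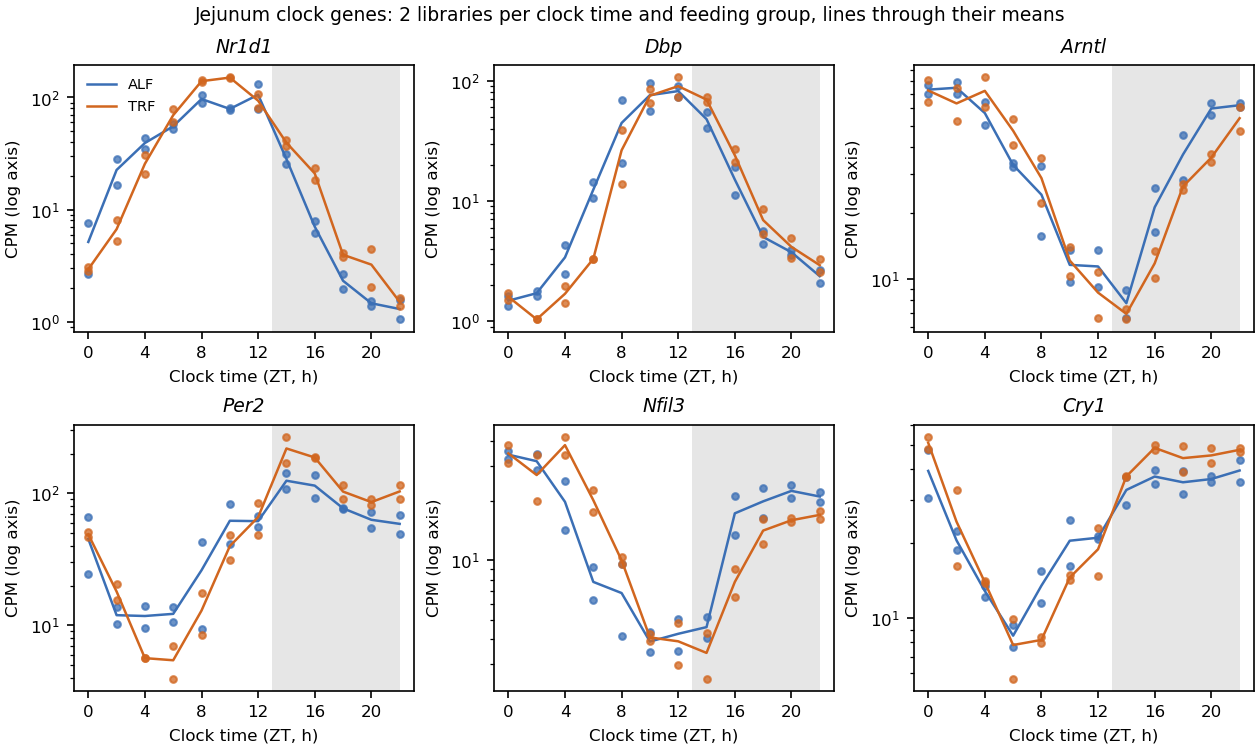
CPM (y, log axis) of 6 clock genes by clock time (x) in the 2 ALF and 2 TRF libraries of each time (points) with lines through their means; shading marks ZT13 to ZT22. The curves of both groups cycle at all 6. The fitted peaks of Nr1d1 and Nfil3 are later in TRF, although the drawn means of Nr1d1 are highest at ZT10 in TRF and ZT12 in ALF.

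The E-box CACGTG, the site through which CLOCK and BMAL1 act, was searched in the 250 bases before each gene start (its reverse complement is itself). Of 16 clock genes with a RefSeq promoter, 5 held it (31.2%), against 6.86% of all genes. The promoters of Per1 and Ciart, a pair of rhythmic repressors of this loop, are given with the motif in capitals.
Per1, chr11:69098699-69098948, plus strand: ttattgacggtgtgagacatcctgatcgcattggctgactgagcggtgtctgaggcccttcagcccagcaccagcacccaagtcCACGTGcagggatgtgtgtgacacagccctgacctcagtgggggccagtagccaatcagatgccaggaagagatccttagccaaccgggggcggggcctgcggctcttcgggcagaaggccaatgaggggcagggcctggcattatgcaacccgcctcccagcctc
Ciart, chr3:95882229-95882478, minus strand: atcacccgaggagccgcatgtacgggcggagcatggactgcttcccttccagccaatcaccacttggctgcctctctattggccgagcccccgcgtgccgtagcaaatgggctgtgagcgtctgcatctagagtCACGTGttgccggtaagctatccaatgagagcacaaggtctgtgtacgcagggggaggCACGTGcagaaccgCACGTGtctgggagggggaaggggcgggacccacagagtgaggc
Ciart held 3 matches and Per1 1. Ciart peaked at ZT12.7 ± 0.525 h in ALF and ZT13.6 ± 0.399 h in TRF and Per1 at ZT13.6 ± 0.807 h in ALF and ZT14.4 ± 0.605 h in TRF. Genes without a match may carry one outside this window.

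Outside the clock, the largest amplitudes in ALF among genes of at least 5 CPM were those of Fgf15, the hormone that tells the liver to slow bile acid synthesis (amplitude of 2.30 ± 0.40 in ALF and 2.48 ± 0.40 in TRF), Sult6b2, a sulfotransferase (amplitude of 1.99 ± 0.23 in ALF and 2.36 ± 0.23 in TRF), and Slc2a7, a hexose transporter (amplitude of 1.66 ± 0.14 in ALF and 2.24 ± 0.14 in TRF). Slc5a4a, a relative of the sodium-glucose transporter, had the largest of these amplitudes in TRF (amplitude of 1.53 ± 0.15 in ALF and 2.78 ± 0.15 in TRF, adjusted p of the difference = 0.00115). Sprr2a1, a cornified-envelope protein with close paralogs, also ranked among the largest in ALF (amplitude of 1.65 ± 0.38 in ALF and 1.49 ± 0.38 in TRF; adjusted p = 0.04 in ALF). Fgf15 is also a marker of the distal small intestine. Of the 9 tested distal markers, 4 were rhythmic in ALF and 7 in TRF, beside 14.2% and 55.8% of all genes. The part of sample position along the gut in these rhythms was not tested. Protein uptake genes were rhythmic in 16 of 19 in ALF and 18 in TRF, beside 14.2% and 55.8% of all genes. Slc15a1 topped at ZT12 in both, at 1059 CPM in ALF and 778 CPM in TRF.

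Ribosome biogenesis genes had larger rhythms in TRF. All 24 of 24 were rhythmic in TRF and 4 in ALF, beside 55.8% and 14.2% of all genes. The rhythms differed for 15 (18 with offsets), beside 6.33% of all genes. Their median amplitude was 0.14 in ALF and 0.41 in TRF. Bysl (chr17:47599331-47611492), a factor for small-subunit assembly, held 31.1 and 30.3 CPM at ZT18 and 7.30 and 11.9 CPM at ZT6 in TRF, against 17.9 and 18.4 and 12.0 and 16.6 CPM in ALF. It had an amplitude of 0.22 ± 0.078 in ALF and 0.82 ± 0.078 in TRF (adjusted p of the difference = 0.00115). Rrp12, which exports ribosomal subunits, and Nop2, an rRNA methyltransferase, had TRF amplitudes of 0.72 and 0.63 and ALF amplitudes of 0.16 and 0.16 (adjusted p of the difference = 0.000937 and 0.00174). Of the list, 14 had a positive meal-hour difference, beside 3.53% of all genes. Myc, which drives this pathway, had an amplitude of 0.11 ± 0.073 in ALF and 0.20 ± 0.073 in TRF (adjusted p of the difference = 0.447).

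Many cell-division genes also had larger rhythms in TRF. Of 15 proliferation markers 15 were rhythmic in TRF and 2 in ALF, and 9 differed, beside 55.8%, 14.2% and 6.33% of all genes. Rrm2, a subunit of the enzyme that makes DNA precursors, had an amplitude of 0.18 ± 0.058 in ALF and 0.66 ± 0.058 in TRF (adjusted p of the difference = 0.000837) and a fitted TRF peak at ZT20.1. Mcm2, a replication helicase subunit, had an amplitude of 0.083 ± 0.062 in ALF and 0.50 ± 0.062 in TRF (adjusted p = 0.00681). The division marker Mki67 had its TRF peak at ZT23.3, and its difference did not pass (adjusted p = 0.0811).

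Fat oxidation genes were rhythmic in 31 of 33 tested of 35 in TRF and in 13 in ALF, and 6 rhythms differed. The shares of all genes were 55.8%, 14.2% and 6.33%. Eci2, an enoyl-CoA isomerase, and Cyp4a10, a fatty acid hydroxylase, had larger amplitudes in TRF (0.51 and 1.64 against 0.18 and 0.55; adjusted p of the difference = 0.000562 and 0.0105). In mean level 12 of this list rose, 10 also with offsets, and 4 fell, 0 also with offsets. Angptl4, an inhibitor of lipoprotein lipase, rose by 0.64 (adjusted p = 0.00035).

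**Figure D5:**
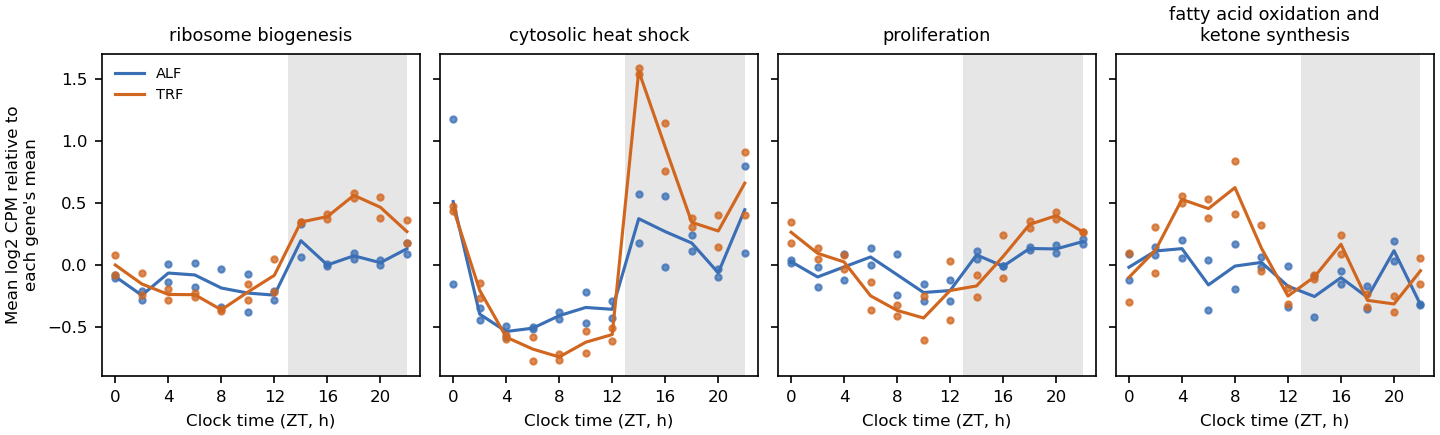
Mean log2 CPM of 4 gene lists, relative to each gene's mean over the 48 libraries (y), by clock time (x); points are libraries, lines join the means of 2, and shading marks ZT13 to ZT22. Heat shock genes stand at 1.54 and 1.59 in the TRF libraries at ZT14, and ribosome biogenesis genes at 0.58 and 0.54 at ZT18; fat oxidation genes are high in TRF at ZT4 to ZT8.

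The genes with the smallest p for a difference in rhythm were Bcas3, a protein of autophagy and cell migration (amplitude of 0.32 ± 0.053 in ALF and 0.99 ± 0.053 in TRF, adjusted p = 2.03e-06), Wdr45, a lipid-binding autophagy protein (amplitude of 0.14 ± 0.054 in ALF and 0.72 ± 0.054 in TRF, adjusted p = 6.50e-06), and Auh, which breaks down leucine (amplitude of 0.19 ± 0.047 in ALF and 0.65 ± 0.047 in TRF, adjusted p = 1.25e-05). Adh4, Slc6a20a and the mitophagy kinase gene Pink1 followed, with TRF amplitudes of 2.13, 1.83 and 0.78 and ALF amplitudes of 0.44, 0.66 and 0.24. Pbld1 (0.50 in ALF, 1.24 in TRF) and Ncbp1, a subunit of the nuclear cap-binding complex (0.083 and 0.45), complete the 8. Of these, Bcas3, Wdr45, Auh, Adh4, Slc6a20a, Pink1 and Pbld1 had TRF peaks between ZT4 and ZT12 and Ncbp1 at ZT19.3.

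Last, the mean-level effect was compared with those in the neighbouring duodenum and ileum, 48 libraries each, in fits with GC offsets. The jejunal effect differed from the duodenal one for 21.2% of 15472 genes and from the ileal one for 9.83% of 15102. Without offsets 8397 and 5765 genes differed, in place of 3278 and 1485. Reg3b had log2 fold changes of -2.15 in the jejunum and -0.38 in the duodenum, a difference of -1.77 ± 0.45 (adjusted p = 0.00174), and of -2.17 in the jejunum and -1.12 in the ileum, a difference of -1.05 ± 0.41 (adjusted p = 0.0952). Reg3g had -1.57 in the jejunum and -0.54 in the duodenum, a difference of -1.03 ± 0.36 (adjusted p = 0.0307), and its difference from the ileum did not pass (adjusted p = 0.428). Of the antimicrobial list 5 of 22 had a lower effect than in duodenum and 1 a higher one, beside 1148 and 2130 of all 15472 genes. Against the ileum 1 of 23 was lower and 0 higher, beside 532 and 953 of all 15102 genes.

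Fasn and Acacb rose more in jejunum than in duodenum. Fasn showed 1.05 in the jejunum and 0.27 in the duodenum, a difference of 0.78 ± 0.17 (adjusted p = 0.000224), and Acacb 1.00 in the jejunum and 0.18 in the duodenum, a difference of 0.82 ± 0.18 (adjusted p = 0.000375). Against the ileum neither difference passed (adjusted p = 0.768 and 0.985). Scd1 was higher in TRF in all 3 segments, by 1.83 in jejunum, 1.48 in duodenum and 2.19 in ileum, and its differences did not pass (adjusted p = 0.564 and 0.575). Adipoq had 0.90 in the jejunum and 0.19 in the duodenum, a difference of 0.72 ± 0.38 (adjusted p = 0.19). Slc15a1 had -0.65 in the jejunum and 0.19 in the duodenum, a difference of -0.84 ± 0.24 (adjusted p = 0.00768). The effect on Mt1 differed from both segments, by 1.01 from duodenum and 0.61 from ileum (adjusted p = 8.47e-05 and 0.0261), and that on Mt2 by 0.79 and 0.82, which did not pass (adjusted p = 0.0957 and 0.173).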

How the data were processed

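The authors deposited 1 column of expected counts per library, and 32.7% of the jejunum values are not whole. Per the labels' protocols, stranded mRNA libraries were sequenced on Illumina HiSeq or NovaSeq machines. Per the submitters' processing notes, CASAVA 1.8, FastQC 0.11.8, STAR 2.5.3a and HOMER 4.10 were used with mm10 (GRCm38). Libraries were run 1 to 3 times, and no source used here says how runs were joined in a column. Of 24537 rows, 4 with duplicated date-like names were left out.

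Values were rounded and fitted with edgeR 4.0.16 (R 4.3.3; filterByExpr, TMM, quasi-likelihood test, Benjamini-Hochberg) on all 48 libraries: feeding plus clock time for mean level, clock time plus 1 feeding effect in each span of hours for the meal-hour difference, and 24 h cosine terms per group for rhythm. Differences between tissues were tested as the interaction of feeding and tissue over both tissues' libraries, with GC offsets. Standard errors are the log2 fold change over the root of F. Amplitudes and peaks come from limma 3.58.1 on log2 CPM with a prior count of 2. GC offsets remove each library's lowess trend (span 0.3) on the GC content of the longest GENCODE vM21 transcript. DESeq2 1.42.0 was an alternative. The models were also run on simulated counts, drawn separately for each gene without a GC trend or shared changes of cell types. That run says nothing about the effect of these features. Levels are CPM, so they are not compared between genes.

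Genes named by size or rank of the jejunum tests needed an adjusted p below 0.05 with and without offsets and a mean of at least 5 CPM. For the mean level they also needed the same sign in both replicates. They were the 12 largest rises and falls, 6 meal-hour differences each way, 8 amplitudes per group and 8 rhythm differences. The 5 tissue differences each way needed an adjusted p below 0.05 in the fit with offsets only, without the CPM rule. Up to 5 members per list were taken by the smallest mean-level p, with no threshold, offset or CPM rule. The lists and genes were chosen with earlier results of these data known. Genes named for their role, or as the counterpart of one named, were added after their values were seen. Some genes the rule selects are not reported here. Alternatives are given in the closing section.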

Additional observations from a re-analysis of the deposited data

Results flagged for a closer look

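In 11 genes the TRF effect at ZT14 to ZT22 minus that at ZT0 to ZT12 passed the test of the difference with the largest sizes. It was 2.42 for Hspa1b, 2.33 for Lep, 1.74 for Rab30, 1.48 for Cemip, 1.45 for Slc2a5 and 1.41 for G0s2 on the log2 scale. Negative values were -1.78 for Adh4, -1.38 for Slc6a20a, -1.37 for Zc3h6, -1.26 for Erbb3 and -1.08 for Ptk6. Lep, an adipocyte gene, had an effect of -2.33 at ZT0 to ZT12.

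Between the jejunum and the duodenum the effect of TRF differed most by these values on the log2 scale: 4.80 for Chia1, 3.73 for Atp4b, 2.97 for Krt1, 2.81 for Mir6236 and 2.74 for Dpm3, and -3.98 for Serpina1f, -2.07 for Gm14085, -2.02 for Kcnj13, -1.94 for Serpina1e and -1.81 for Mbl2. Chia1 and Atp4b are made in the stomach, and in duodenum Chia1 had a mean of 24.01 CPM in ALF and 3.85 CPM in TRF. Against the ileum the values were 1.78 for Dpm3, 1.30 for Chac1, 1.28 for Snord104, 1.24 for Tnfrsf13b and 1.21 for Casp14, and -6.10 for Tff2, -5.78 for Pnlip, -5.68 for 2210010C04Rik, -4.92 for Prss2 and -4.79 for Ctrb1. Of the last group, Pnlip, Prss2 and Ctrb1 are pancreatic enzymes and Tff2 a stomach peptide; in ileum Pnlip had a mean of 0.115 CPM in ALF and 36.1 CPM in TRF.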

How the results depend on the processing

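With GC offsets 1682 genes were higher and 1199 lower (main values 3392 and 3331), and with the replicate block added 1698 and 1206. With log2 Adipoq and GC offsets, chosen after the data were seen, 836 and 457 passed. Asking for a change of 0.5 or more on the log2 scale left 459 and 169. Leaving out each replicate gave 1569 to 2132 higher and 917 to 1629 lower genes, and leaving out each clock time 3035 to 3450 and 2708 to 3392. DESeq2, its size factors, no filter, the number of runs as a term, the Adipoq term alone and omission of the 5 libraries with a steep GC slope, the last 2 also chosen after the data were seen, kept both counts within 1.5 times. The meal-hour difference gave 0 genes in edgeR's test without either replicate (1932 and 1741 at an unadjusted p below 0.05; main 927; 1310 with GC offsets). Rhythm in ALF gave 153 to 431 genes without a replicate, 1126 without the 5 steep libraries, and 1292 at an amplitude of at least 0.25 (main 2118). Rhythm in TRF gave 4421 to 4805 without a replicate (main 8325). The rhythm difference gave 10 to 118 without a replicate and 433 with a 12 h harmonic added (main 945; 1348 with GC offsets). The difference from duodenum gave 8397 without offsets and 1073 to 1901 without a replicate, and that from ileum 5765, and 258 to 447. Fewer libraries lower the power of every fit without a replicate; the other causes were not tested.

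The replicate block did not change calls by over 1.5 times: 3426 higher and 3393 lower genes, 1010, 2162, 8438 and 1011 genes for the meal-hour difference, the rhythms in ALF and TRF and their difference, and 3330 and 1577 for the differences from duodenum and ileum. It changed none of the mean-level calls of named genes. ALF and TRF libraries of 1 time share only a number: the correlation of their deviations ran from -0.31 to 0.50 over 12 pairs and was above 0 in 6. Of 126 named or listed genes called without offsets, 93 kept their call with GC offsets, 31 missed the threshold and 2 changed sign. With the Adipoq term and GC offsets 54 kept it, 68 missed the threshold and 4 changed sign, and 95 kept it without replicate 1, 86 without replicate 2 and 109 without the 5 steep libraries. Clock went to 0.022 with GC offsets, 0.037 with the Adipoq term added and 0.022 with the block, and Amn to -0.081, -0.063 and -0.080. With the Adipoq term and GC offsets Tfrc went to 0.032 and Sdf2l1 to -0.051. The shallowest library held 8044852 counts, which limits genes of few CPM most.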

Other observations

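Gene groups without a comparison of their own gave these counts. Of 21 immediate early genes 13 were rhythmic in TRF and 0 in ALF, beside 55.8% and 14.2% of all genes, and 0 rhythms differed. Of 16 antioxidant genes 3 rose and 6 fell, 1 and 3 also with offsets. Gpx1, a glutathione peroxidase, rose (log2 fold change 0.33, SE 0.066, adjusted p = 0.000112; 0.12 with GC offsets, adjusted p = 0.0803), as did the heme oxygenase Hmox1 (log2 fold change 0.30, SE 0.084, adjusted p = 0.00382; with the Adipoq term 0.17, adjusted p = 0.162). Calls did not hold without replicate 2 for Hmox1 (adjusted p = 0.287). Nqo1, a quinone reductase of the antioxidant response, was lower in TRF at all 12 clock times (log2 fold change -0.34, SE 0.050, adjusted p = 1.87e-06), as was the peroxiredoxin Prdx1 (log2 fold change -0.32, SE 0.052, adjusted p = 8.14e-06; -0.16 with GC offsets, adjusted p = 0.00699). Lipid droplet and lipolysis genes rose in 8 of 14 tested of 16, 5 also with offsets; Mgll, the monoglyceride lipase, stood at 25.5 to 50.1 CPM in the ALF libraries (median 41.5) and 40.8 to 97.8 CPM in the TRF libraries (median 54.6) (log2 fold change 0.57, SE 0.070, adjusted p = 1.47e-07). Many of these genes are also expressed in adipocytes, and with the Adipoq term the value was 0.49 for Mgll (adjusted p = 4.24e-05). Stem cell markers of the crypt fell in 3 of 10, 0 of them also with offsets. Interferon-stimulated genes rose in 4 and fell in 3 of 28, 0 and 1 also with offsets.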
